A study of Mus musculus with 3 samples.

Results

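The genes described here carry out mitosis, the division of a cell's chromosomes and cytoplasm between its daughters. They are 51 genes named for their part in the spindle, the kinetochore, the spindle checkpoint or cytokinesis, chosen by symbol. All 51 were found among the 20677 rows of the deposited expression table, and each had a single row. RNA was sequenced from skin mast cells taken from mice aged 1 week. The 3 libraries differ in when, and through which driver gene, the cells were marked in the embryo. The early EMP library came from Csf1rCre/EYFP mice given 4-hydroxytamoxifen (4'OHT) at embryonic day 8.5, a drug that activates an inducible Cre recombinase, so that cells expressing the driver at that time and their progeny keep the fluorescent protein EYFP. The late EMP library came from Runx1Cre/EYFP mice given the drug at day 8.5, and the fetal HSC library from Runx1Cre/EYFP mice given it at day 9.5. EMP stands for erythro-myeloid progenitor and HSC for haematopoietic stem cell, and the names follow the labels. All animals had the mixed background C57BL/6xCD1xFVB and all received the drug in the womb. Driver and origin cannot be told apart, because Csf1rCre was used for early EMP alone. How many animals were used, their sex and the sorting gate are not stated in the labels.

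Entry into mitosis is driven by the kinase Cdk1 bound to B-type cyclins, and the spindle then attaches to chromosomes through the kinetochore. A checkpoint holds the cell until every chromosome is attached, after which the anaphase-promoting complex marks securin and cyclin B for destruction and the sister chromatids part. Most of these genes are transcribed late in the cell cycle. Their promoters typically carry a CHR element (cell cycle genes homology region), bound by the MuvB complex, and boxes bound by NF-Y. MuvB with p130 represses them in resting cells, and MuvB with B-Myb and Foxm1 activates them in dividing cells. Connective tissue mast cells are long-lived and can renew in the tissue by division.

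Each origin has 1 library, so no difference below has a replicate check and no test was possible. Levels are FPKM, fragment counts corrected for transcript length and library size, and may be compared between genes. A difference is given as the log2 of (FPKM + 1) in one library over (FPKM + 1) in the other, and genes at least 2-fold apart on that scale are counted. The deposited FPKM summed to 639067 for early EMP, 614207 for late EMP and 640500 for fetal HSC, and sets of 3 values below keep that order. Depth is not stated; from the steps between low values it was estimated roughly at 15.45, 15.6 and 16.55 M fragments. The mast cell markers Kit, Fcer1a, Cpa3, Cma1, Tpsb2, Mcpt4, Hdc, Gata2 and Mrgprb2 were at 38.8 FPKM or more in every library, and all 9 lay within 2-fold in each comparison.

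The promoters of the mitosis genes are shown because the genes differed together and because the elements they share were not used to choose them. Promoter windows of RefSeq, 250 bases before to 50 after a transcript start on GRCm38.p6, were matched for 44 of the 51 genes. Not matched in the table used here were Ccna2, Tpx2, Cdc25c, Incenp, Aurkb, Kif20a and Spc24. In 40 of the 44 genes a window's start lay within 500 bases of the annotated 5′ end of the gene. In Cdc25b (512 bases), Cdca3 (646), Pttg1 (1482) and Kif2c (3852) it lay further inside. The windows of these genes, and those of Aurka (316 bases inside) and Ect2 (375 and 399), do not reach the outermost start. Those printed are of Ccnb2 (chr9:70421505-70421804, minus strand), Plk1 (chr7:122159185-122159484, plus strand), Ube2c (chr2:164769679-164769978, plus strand), Cdc20 (chr4:118437294-118437593, minus strand) and Birc5 (chr11:117848987-117849286, plus strand), whose RNAs were higher in both Runx1-driven libraries, and of Kif23 (chr9:61946750-61947049, minus strand), whose RNA was not. Capitals mark CHR elements, searched as TTTGAA or TTTAAA on both strands, and NF-Y boxes, searched as CCAAT on both strands (ATTGG on the other strand). Where matches of a kind overlap, the first alone is counted and capitalised.
Ccnb2: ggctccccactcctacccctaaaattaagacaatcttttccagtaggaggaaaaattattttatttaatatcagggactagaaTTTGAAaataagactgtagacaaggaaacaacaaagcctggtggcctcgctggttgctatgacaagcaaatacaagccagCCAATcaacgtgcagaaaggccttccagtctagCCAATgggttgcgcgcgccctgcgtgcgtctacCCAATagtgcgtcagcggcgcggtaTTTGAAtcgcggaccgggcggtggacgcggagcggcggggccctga
Plk1: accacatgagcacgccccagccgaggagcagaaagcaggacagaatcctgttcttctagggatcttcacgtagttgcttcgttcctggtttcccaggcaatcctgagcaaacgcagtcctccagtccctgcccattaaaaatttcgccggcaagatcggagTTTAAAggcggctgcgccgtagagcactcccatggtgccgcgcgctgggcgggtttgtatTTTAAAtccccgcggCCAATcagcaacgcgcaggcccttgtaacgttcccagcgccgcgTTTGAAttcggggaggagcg
Ube2c: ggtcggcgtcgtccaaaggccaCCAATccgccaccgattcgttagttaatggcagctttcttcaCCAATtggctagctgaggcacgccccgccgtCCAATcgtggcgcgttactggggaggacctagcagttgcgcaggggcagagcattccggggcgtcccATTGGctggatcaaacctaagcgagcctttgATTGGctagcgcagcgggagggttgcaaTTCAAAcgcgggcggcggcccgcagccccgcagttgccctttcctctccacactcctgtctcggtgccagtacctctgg
Cdc20: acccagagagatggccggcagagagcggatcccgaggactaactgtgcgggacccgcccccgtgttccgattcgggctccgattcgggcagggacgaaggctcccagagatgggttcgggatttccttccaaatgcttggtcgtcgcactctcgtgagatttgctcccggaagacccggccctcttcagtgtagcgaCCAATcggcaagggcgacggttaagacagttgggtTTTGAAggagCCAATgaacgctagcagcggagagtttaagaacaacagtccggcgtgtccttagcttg
Birc5: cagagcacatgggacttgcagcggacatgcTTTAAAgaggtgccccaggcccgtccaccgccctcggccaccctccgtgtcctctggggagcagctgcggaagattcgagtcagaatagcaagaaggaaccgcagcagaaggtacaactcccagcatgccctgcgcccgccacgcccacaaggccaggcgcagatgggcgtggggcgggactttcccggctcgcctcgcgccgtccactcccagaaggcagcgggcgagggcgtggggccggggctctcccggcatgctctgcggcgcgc
Kif23: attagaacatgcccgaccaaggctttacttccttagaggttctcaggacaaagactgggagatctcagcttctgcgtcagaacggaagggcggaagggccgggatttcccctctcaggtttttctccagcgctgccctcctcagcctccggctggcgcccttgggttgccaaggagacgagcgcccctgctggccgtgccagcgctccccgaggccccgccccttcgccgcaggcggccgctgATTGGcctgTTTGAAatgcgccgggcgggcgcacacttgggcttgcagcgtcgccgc

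A CHR element was found in 36 of the 44 mitosis genes with a promoter (81.8%). Over all 27025 genes of the promoter table the share was 30.6%, and over the 9296 of them kept in the expression table it was 22.9%. The form TTTGAA was found in 32 mitosis genes, against 20.2% of all genes, and the form TTTAAA in 11, against 14.9%. The elements of the mitosis genes gathered near the start: 31 of 44 genes (70.5%) had a CHR element beginning within 50 bases before the start or after it, against 9.54% of all genes, a distance chosen after the positions were seen. In Plk1 they began 89 and 29 bases before the start and 30 bases after it, in Cdc20 18 bases before and in Ube2c 29 bases before. In Birc5 the CHR match lay 220 bases before the start.

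At least 1 NF-Y box was found in 32 of the 44 genes (72.7%), against 41.1% of all genes, and at least 2 in 21 genes (47.7%), against 13.1%. Ube2c and Hmmr held 5 and Top2a held 6, while Birc5 held none. The boxes lay further upstream than the CHR elements, with the fullest bin from position -75 to -50, where 36.2% of mitosis gene promoters had a box. The combination of a CHR element and an NF-Y box was present in 29 genes (65.9%), against 12.2% of all genes. An E2F site (TT, then any pair of letters from C and G, then CGC, on both strands) was found in 8 genes (18.2%), against 10.9% of all genes and 19.4% of those kept in the expression table. A CHR element overlapped an NF-Y box or E2F site in 1 mitosis gene promoter. Mitosis gene promoters had a median GC content of 58.7%, against 52.7% over all promoters. These are matches of letters and do not show binding.

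**Figure D1:**
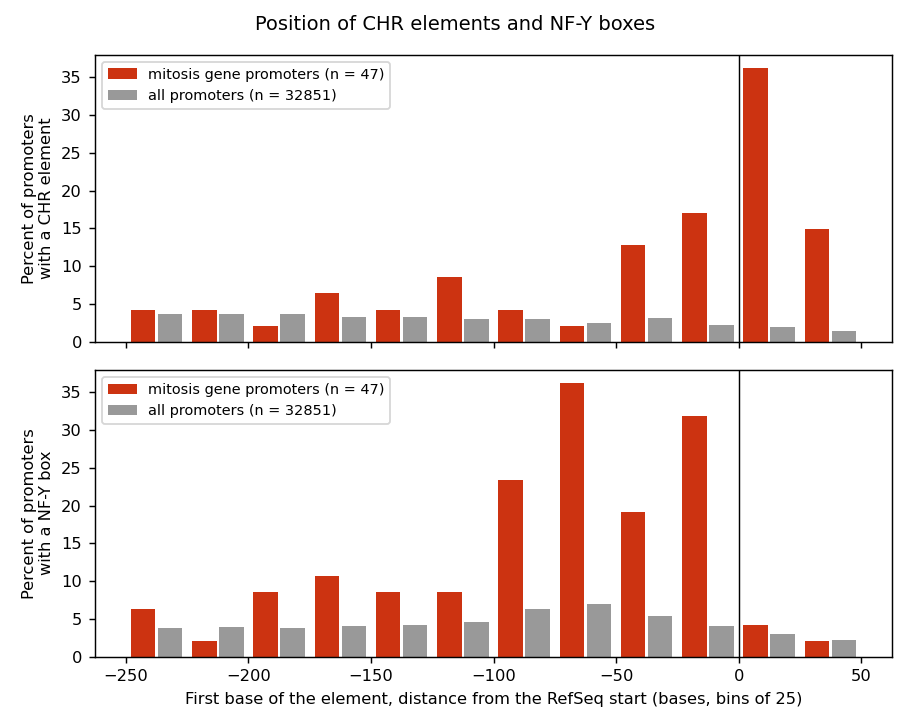
Percent of promoters with a CHR element (top) or an NF-Y box (bottom) beginning in each bin of 25 bases, by distance from the RefSeq start, for 47 promoters of 44 mitosis genes (red) and all 32851 promoters (grey). CHR elements of mitosis genes are most frequent in the 25 bases from the start (36.2% of promoters) and NF-Y boxes between positions -100 and 0.

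Most mitosis genes were lower in the early EMP library than in both Runx1-driven libraries, while Kif23 and Pttg1 were level. Levels of the 51 genes in the early EMP library ran from 0.02 FPKM (Espl1) to 141 (Kif23), with a median of 1.87. The median was 8.47 FPKM for late EMP and 8.94 for fetal HSC, while over all 14412 genes kept it was 4.87, 5.12 and 4.57. Of the 51 genes, 49 were lowest in the early EMP library, as were 32.5% of all genes kept, and 13 were under 1 FPKM there, against none for late EMP and 1 for fetal HSC. Their summed FPKM was 366, 756 and 817. Without Kif23, Pttg1 and Bub3, left out after their values were seen because they are abundant in every library, the other 48 summed to 130, 529 and 559. In RNA of a whole sample, fewer dividing cells and less of each RNA per dividing cell cannot be told apart.

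**Figure D2:**
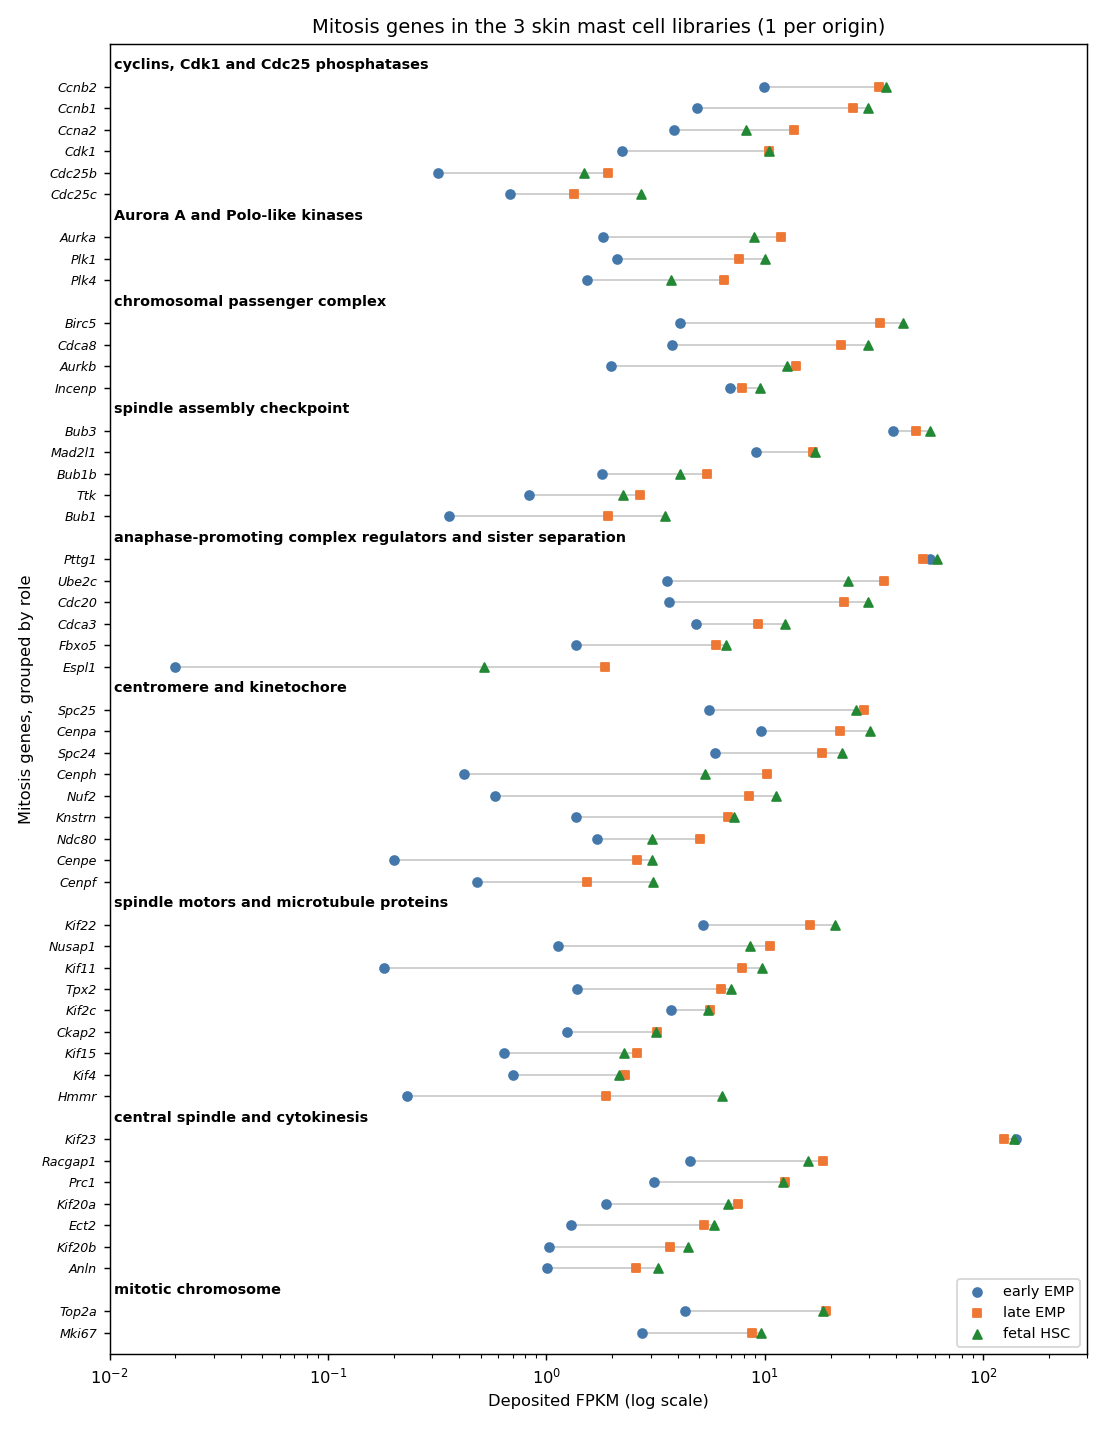
Deposited FPKM (log scale) of the 51 mitosis genes, grouped by role, in the early EMP (blue circle), late EMP (orange square) and fetal HSC (green triangle) libraries, 1 library each. The early EMP value is the lowest of the 3 for 49 genes, and the 3 values of Kif23 and Pttg1 lie close together.

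Late EMP over early EMP contrasts cells marked through Runx1 with cells marked through Csf1r on the same embryonic day. At least 2-fold higher were 39 of 51 mitosis genes and none was lower, with a median log2 difference of 1.48. Some of the 39 were under 1 FPKM for early EMP and were kept only through the other libraries, where they are higher. These were Cdc25b, Bub1, Ttk, Espl1, Cenpe, Cenph, Nuf2, Kif11, Kif15 and Hmmr. Over all genes kept, 8.65% were at least 2-fold higher and 10.8% at least 2-fold lower, with a median of 0.00. Among rows with a gene symbol these shares were 7.55% and 4.24%. At 4-fold the count was 12 genes, against 0.999% of all genes. The count depends on the constant added to low values: with 5 FPKM in place of 1 it was 20 of 51, against 1.46% of all genes.

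Fetal HSC over early EMP also sets Runx1 against Csf1r, but the fetal HSC cells were marked a day later, so driver and day both differ. It shares the early EMP library with the comparison above. Of 51 mitosis genes 35 passed 2-fold upwards and none downwards, and the median log2 difference was 1.61. Of the 35, those kept only through the Runx1-driven libraries were Cdc25c, Bub1, Cenpe, Cenpf, Cenph, Nuf2, Kif11 and Hmmr. Over all genes kept, 8.19% were higher and 17.8% lower, with a median of -0.11, and among rows with a symbol 8.08% and 8.6%. At 4-fold the count was again 12, against 1.12% of all genes. With 5 FPKM added the count was 21 of 51, against 1.76% of all genes. At least 2-fold higher in both Runx1-driven libraries were 31 mitosis genes, as were 3.40% of all genes kept. Another 8 were so for late EMP alone, 4 for fetal HSC alone and 8 for neither. The 8 for late EMP alone were also above early EMP in the fetal HSC library, by log2 0.58 to 0.99. Likewise, the 4 for fetal HSC alone were above it in the late EMP library, by 0.48 to 0.82. The share of all genes passing in 1 comparison alone was not computed, so these counts have nothing beside them.

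Fetal HSC over late EMP sets 2 Runx1Cre libraries side by side. Of 51 mitosis genes 50 lay within 2-fold, with a median log2 difference of 0.13, while 3.46% of all genes were higher, 8.26% were lower and the median was -0.10 (2.73% and 5.36% among rows with a symbol). Hmmr, a microtubule-binding spindle protein also known as a hyaluronan receptor, was the exception at 0.23, 1.87 and 6.34 FPKM. Its log2 difference between these libraries was 1.35, or 0.72 with 5 FPKM added. Across the 51 genes the order of levels was close in these libraries (Spearman's rho 0.945), a description of genes that share length and sequence and not of replicates. Against early EMP, rho was 0.835 for late EMP and 0.825 for fetal HSC.

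**Figure D3:**
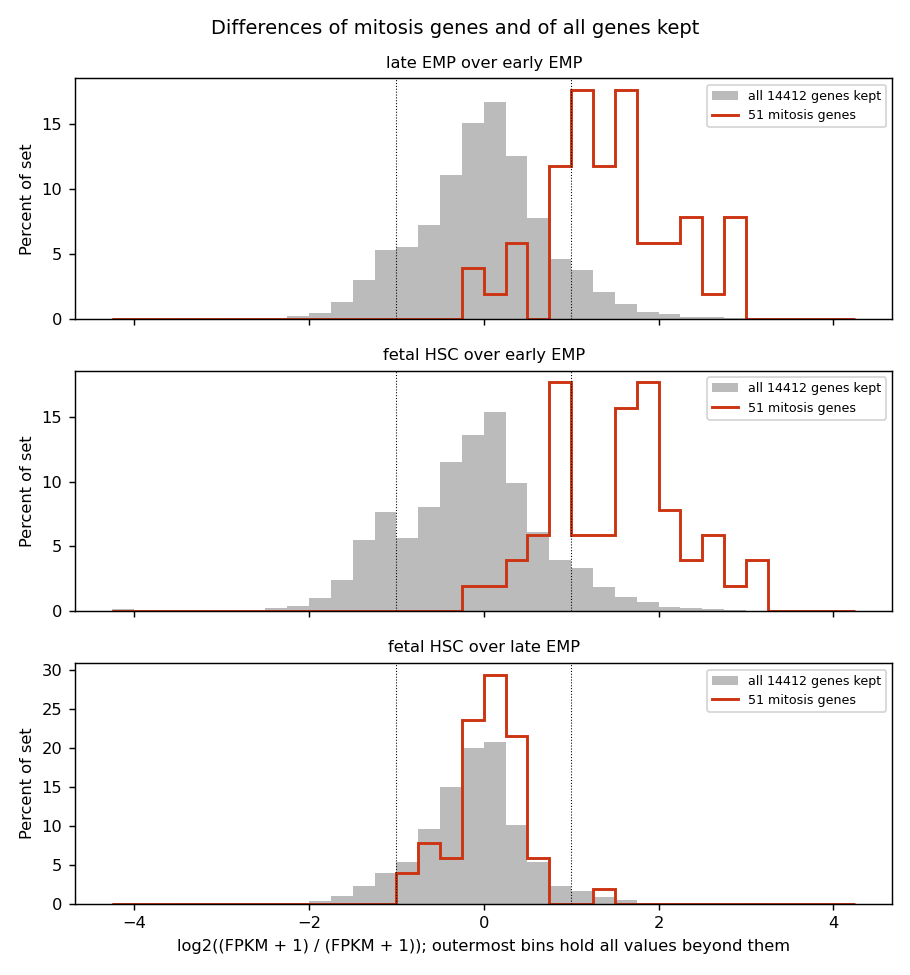
Distribution of log2((FPKM + 1) / (FPKM + 1)) in bins of 0.25 for all 14412 genes kept (grey) and the 51 mitosis genes (red outline), as percent of each set, in the 3 comparisons; dotted lines mark 2-fold. Mitosis genes lie mostly right of the upper line in the upper 2 panels and around 0 in the lowest.

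Among the genes that drive entry into mitosis, Cdk1, the mitotic kinase, was at 2.23, 10.4 and 10.5 FPKM. Its partner Ccnb1 (cyclin B1) was at 4.88, 25.5 and 29.7 FPKM. Ccnb2 (cyclin B2) was at 9.96, 33.5 and 35.7 FPKM. All 3 were lowest in the early EMP library and nearly level in the other libraries. Ccna2 (cyclin A2), which acts from S phase on, was at 3.83, 13.6 and 8.18 FPKM, with fetal HSC below late EMP by 0.67 on the log2 scale. The phosphatases that activate Cdk1 were low: Cdc25b was at 0.32, 1.92 and 1.48 FPKM. Cdc25c was at 0.68, 1.34 and 2.71 FPKM, its late EMP value falling short of 2-fold over early EMP (log2 0.48). Of the kinases that build the spindle and centrosomes, Aurka (Aurora A) was at 1.82, 11.9 and 8.94 FPKM. Plk1 (Polo-like kinase 1) was at 2.10, 7.64 and 10.01 FPKM, and Plk4, which starts centriole duplication, at 1.54, 6.47 and 3.72. Plk1 was highest in the fetal HSC library, while Aurka and Plk4 were highest in the late EMP library.

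The chromosomal passenger complex corrects faulty spindle attachments and consists of a kinase, a scaffold and 2 targeting subunits. Birc5 (survivin; chromosome 11, 117849237 to 117855743, GRCm38) was at 4.11, 33.7 and 42.7 FPKM, so 8.19 and 10.4 times the early EMP value. Cdca8 (borealin) was at 3.77, 22.3 and 29.6 FPKM. Aurkb, the kinase, was at 1.98, 13.9 and 12.7 FPKM. These 3 subunits were several-fold apart, whereas their scaffold Incenp was at 6.95, 7.90 and 9.46 FPKM, within 2-fold in every comparison. In the early EMP library Incenp was thus the most abundant subunit per length, and in the others the least abundant.

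All 5 spindle checkpoint genes were lowest in the early EMP library, as were 32.5% of all genes kept. Bub1, a checkpoint kinase, was at 0.36, 1.91 and 3.50 FPKM. Bub1b (BubR1) was at 1.79, 5.42 and 4.08 FPKM, and the kinase Ttk (Mps1) at 0.83, 2.69 and 2.25. Mad2l1 (Mad2) was at 9.15, 16.6 and 16.9 FPKM, under 2-fold. Bub3, a binding partner of Bub1 and BubR1, was abundant everywhere at 38.6, 49.4 and 56.9 FPKM. In this group 3 of 5 genes passed 2-fold for late EMP and 1 of 5, Bub1, for fetal HSC. The shares of all genes kept that did so were 8.65% and 8.19%. For fetal HSC, Bub1b, Ttk, Mad2l1 and Bub3 had log2 differences of 0.86, 0.83, 0.82 and 0.55. Ttk lay at the threshold, with a log2 difference of 1.01 for late over early EMP, and fell below it (0.97) after median-of-ratios scaling.

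Genes that regulate the anaphase-promoting complex or act in sister separation gave both extremes for late over early EMP. Among the 51 genes, the difference was widest for Ube2c (log2 2.99) and narrowest for Pttg1 (-0.09). Ube2c (chromosome 2, 164769929 to 164772902, GRCm38), the enzyme that supplies the complex with ubiquitin, was at 3.55, 35.1 and 23.95 FPKM, 9.90 and 6.75 times the early EMP value. Cdc20, its mitotic activator, was at 3.63, 22.9 and 29.6 FPKM. Fbxo5 (Emi1), its inhibitor in interphase, was at 1.36, 5.97 and 6.65 FPKM. All 3 were at least 2-fold higher in both Runx1-driven libraries. Cdca3, which helps to degrade the mitosis inhibitor Wee1, was at 4.84, 9.31 and 12.3 FPKM, past 2-fold in the fetal HSC library (log2 1.19) and short of it in the late EMP library (0.82). Pttg1 (securin; chromosome 11, 43420244 to 43427463), which holds the protease separase in check, was at 56.8, 53.2 and 61.6 FPKM, level in all libraries. Espl1, which encodes separase, was at 0.02, 1.85 and 0.52 FPKM, about 2.0 fragments in the early EMP library at the estimated depth, so its ratio carries little information.

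Of 9 centromere and kinetochore genes, 8 were at least 2-fold higher in each Runx1-driven library, though not the same 8. The shares of all genes kept were 8.65% for late EMP and 8.19% for fetal HSC. Cenpa, the histone H3 variant that marks centromeres, was at 9.58, 22.1 and 30.4 FPKM. The 4 subunits of the Ndc80 complex, which grips microtubules, did not differ alike. Nuf2 was at 0.58, 8.47 and 11.3 FPKM, and Spc25 at 5.56, 28.6 and 26.2. Spc24 was at 5.92, 18.2 and 22.6 FPKM, and Ndc80 itself at 1.71, 5.05 and 3.05. With no constant added, Nuf2 was 14.6 and 19.5 times its early EMP value, which stood for about 20.2 fragments at the estimated depth. Ndc80 was 2.95 and 1.78 times its early EMP value, short of 2-fold in the fetal HSC library (log2 0.58). Cenpf, a large protein of the outer kinetochore, was at 0.48, 1.54 and 3.07 FPKM and short of 2-fold in the late EMP library (log2 0.78). The motor Cenpe was at 0.20, 2.60 and 3.06 FPKM. Cenph was at 0.42, 10.2 and 5.33 FPKM, its early EMP value standing for about 7.1 fragments. Knstrn (kinastrin), a spindle and kinetochore protein, was at 1.36, 6.81 and 7.19 FPKM.

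Among spindle motors and microtubule proteins, Kif11 (Eg5), the kinesin that pushes spindle poles apart, had the largest log2 difference of all 51 genes for fetal HSC over early EMP. It was at 0.18, 7.86 and 9.74 FPKM, a log2 difference of 2.91 and 3.19, with about 13 fragments in the early EMP library. Nusap1, which bundles microtubules, was at 1.13, 10.6 and 8.52 FPKM, and Tpx2, the activator of Aurora A, at 1.38, 6.32 and 7.02. Kif22 (Kid), a chromosome-bound kinesin, was at 5.21, 16.2 and 21.0 FPKM. These 4 genes were at least 2-fold higher in both Runx1-driven libraries. Kif15, a kinesin that works beside Kif11, was at 0.64, 2.60 and 2.26 FPKM, at the threshold in the fetal HSC library (log2 0.99, and 1.04 after median-of-ratios scaling). Kif2c, which takes microtubules apart, was at 3.71, 5.62 and 5.52 FPKM and had log2 differences of 0.49 and 0.47. Kif4, at 0.70, 2.29 and 2.16 FPKM, and Ckap2, at 1.24, 3.20 and 3.16, were short of 2-fold with 1 FPKM added in both comparisons and past it with 0.1 FPKM added.

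The central spindle and cytokinesis genes were similar, with Kif23 apart. Prc1, which crosslinks the midzone microtubules, was at 3.12, 12.4 and 12.1 FPKM. Kif20a was at 1.87, 7.51 and 6.75 FPKM and Kif20b at 1.03, 3.69 and 4.47. Ect2, which activates RhoA at the cleavage furrow, was at 1.29, 5.25 and 5.83 FPKM, and the scaffold Anln (anillin) at 1.01, 2.56 and 3.25. All of these but Anln in the late EMP library (log2 0.82) were at least 2-fold above early EMP. Kif23 and Racgap1 encode the subunits of centralspindlin, a complex with equal numbers of each. Racgap1 was at 4.53, 18.4 and 15.8 FPKM, while Kif23 (chromosome 9, 61917277 to 61946810, GRCm38) was at 141, 124 and 139, the highest level of any mitosis gene in each library. The Kif23 row includes 2 transcripts defined by the sequencing centre besides the RefSeq one. This is not particular to Kif23: the Cdk1 and Kif20b rows also include 2 and the Mki67 row 4. Rplp1, a ribosomal protein gene at 273, 313 and 279 FPKM, ends 2766 bases from Kif23. Whether reads of other origin enter the Kif23 row was not tested.

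The chromosome proteins often used to mark cycling cells followed the majority. Top2a, the topoisomerase that untangles sister chromatids, was at 4.33, 19.0 and 18.5 FPKM. Mki67, which coats mitotic chromosomes and encodes the Ki-67 antigen, was at 2.75, 8.72 and 9.62 FPKM. Both were at least 2-fold higher in each Runx1-driven library than in the early EMP library, with log2 differences of 1.90 and 1.37 for late EMP and 1.87 and 1.5 for fetal HSC. Their early EMP values stand for about 421 fragments (Mki67) and 339 (Top2a) at the estimated depth.

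Genes with and without a CHR match in their window are set side by side here with no test. The 36 genes with one had a median log2 difference of 1.47 for late over early EMP and 1.59 for fetal HSC over early EMP. The 8 without one, Cdc25b, Bub1, Mad2l1, Pttg1, Cenph, Nuf2, Knstrn and Nusap1, had 1.44 and 1.76. The windows of Cdc25b and Pttg1 do not reach the outermost start, so whether a match lies there is not known. For the 40 genes with a start within 500 bases of the 5′ end, the 34 with a match had medians of 1.48 and 1.64. The 6 without one, which leave out Cdc25b and Pttg1, had 2.08 and 1.98. For the 21 genes with at least 2 NF-Y boxes the medians were 1.47 and 1.74, and for the 23 with fewer they were 1.48 and 1.08. Kif23 held a CHR element 2 bases after its start and an NF-Y box just before it, as printed above, and was level; Nuf2 held neither and was among the furthest apart.

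The activators Foxm1 and Mybl2 were low, while the subunits of NF-Y ranged from 1.34 to 23.0 FPKM in the early EMP library. Whether any of them act on these promoters here was not tested. Foxm1, the forkhead factor that activates mitotic genes, was at 0.35, 3.15 and 1.53 FPKM, and Mybl2 (B-Myb) at 0.71, 2.50 and 1.23. Both were at least 2-fold higher in the late EMP library (log2 1.62 and 1.03) and short of that in the fetal HSC library (0.91 and 0.38). Rbl1 (p107), a pocket protein that restrains E2F, was at 5.45, 16.7 and 11.4 FPKM. Of 20 such regulators kept, 4 were higher for late EMP and none for fetal HSC, with medians of 0.39 and 0.37. The shares of all genes kept that were higher were 8.65% and 8.19%. The MuvB subunit Lin37 was at 27.1, 14.9 and 21.1 FPKM, and Rbl2 (p130) was level at 23.5, 27.4 and 22.6.

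Other complexes that act in mitosis differed by complex. Their counts stand beside 8.65% of all genes kept at least 2-fold higher for late EMP and 8.19% for fetal HSC. Condensin, which compacts chromosomes, had 4 of 8 subunits at least 2-fold higher for late EMP and 5 for fetal HSC, with medians of 0.97 and 1.12. Its subunit Smc2 was at 2.50, 9.29 and 8.92 FPKM and Ncapd2 at 1.03, 6.91 and 6.35, while Ncaph2 was at 35.3, 33.7 and 27.8. The 16 core subunits and partners of the anaphase-promoting complex had medians of 0.25 and 0.02. Of these, Anapc1 alone was higher in the late EMP library, at 9.45 against 3.38 FPKM, and Anapc16 alone was lower in the fetal HSC library, at 16.8 against 35.7. Cohesin genes had 3 and 2 of 14 higher, with medians of 0.20 and 0.25, and Cdca5 (sororin), which protects cohesin until mitosis, was at 1.66, 8.35 and 9.18 FPKM. The DNA replication list, which covers S phase, had 13 and 11 of 22 higher and none lower, with medians of 1.20 and 1.02. Its loading factor Cdt1, the furthest apart of the list in both comparisons and low in early EMP, was at 0.15, 7.74 and 6.56 FPKM. Pcna, the most abundant of the list, was at 93.6, 143 and 151 FPKM, within 2-fold.

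Genes that govern entry into the cycle were mixed. Of 8 G1 cyclins and kinases, 2 were higher for late EMP and 1 for fetal HSC, against 8.65% and 8.19% of all genes kept. Ccnd3 (cyclin D3) was at 37.6, 78.5 and 41.2 FPKM, Ccnd2 at 34.0, 43.7 and 44.3, and Ccnd1 at 1.76, 1.06 and 0.45. Cyclin D3 was thus highest in the late EMP library. Ccne2 (cyclin E2) was at 0.98, 3.35 and 8.55 FPKM. Among 9 Cdk inhibitors and quiescence genes kept, Cdkn1b (p27) was at 3.57, 8.5 and 15.8 FPKM, lowest where the mitosis genes were lowest. Cdkn1a (p21) was at 215, 222 and 315 FPKM, and Cdkn2c (p18) at 5.19, 1.81 and 4.0. Against early EMP, this list had 1 gene higher and 1 lower for late EMP and 2 higher for fetal HSC. The shares of all genes kept that were lower were 10.8% and 17.8%.

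**Figure D4:**
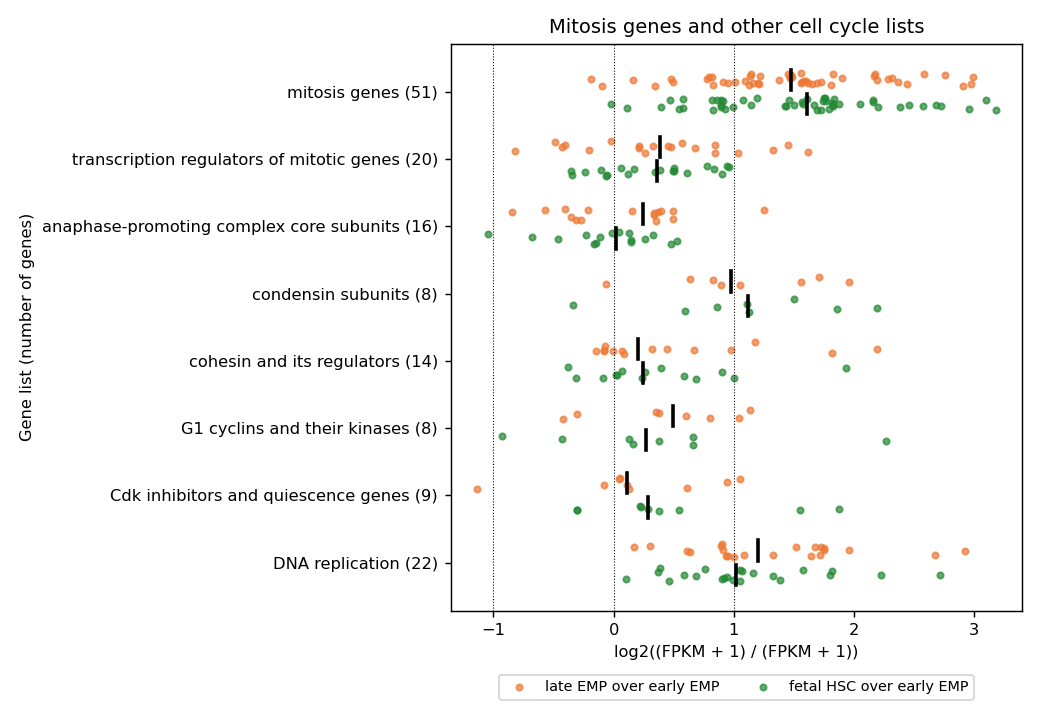
Each point is a gene's log2((FPKM + 1) / (FPKM + 1)) for late EMP over early EMP (orange) and fetal HSC over early EMP (green), for the 51 mitosis genes and 7 other cell cycle lists; black bars are medians and dotted lines mark 0 and 2-fold. Mitosis genes have the largest medians (1.48 and 1.61). DNA replication (1.20 and 1.02) and condensin (0.97 and 1.12) come next, in opposite order in the 2 comparisons.

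Markers of other cells also differed between the libraries, and their part in the mitosis differences was not tested. Macrophage markers, 9 of 9 measured, summed to 117, 94.6 and 67.7 FPKM, with Fcgr1 at 0 in the fetal HSC library. Erythroid markers, 7 of 7, summed to 194, 25.8 and 19.9 FPKM, most of the first sum from Hba-a1, while Alas2 was at 0.04 FPKM or less in each library and Hbb-bt at 0 in the fetal HSC library. Both sums were highest in the early EMP library, where most mitosis genes were lowest, but not every marker followed: Lyz2 was at 37.65, 39.8 and 44.8 FPKM, Adgre1 at 0.50, 2.18 and 0.04, and Klf1 at 0.31, 3.85 and 1.13. Granulocyte precursor markers other than Ctsg, which the mast cells also make, 5 measured, went the other way, with sums of 3.10, 53.3 and 126 FPKM. Mpo (myeloperoxidase) was at 0.88, 39.2 and 47.9 FPKM and Elane at 0.42, 8.73 and 34.7, while S100a8 was at 0 in the late EMP library and Ly6g at 0 in both Runx1-driven libraries. Melanocyte markers, 7 of 7, summed to 31.8, 39.5 and 64.7 FPKM, of which Mitf, also a mast cell factor, gave 30.2, 25.8 and 23.6; Mlana and Sox10 were at 0 in the early EMP library. T cell markers, 6 of 7 measured, summed to 17.0, 6.52 and 18.6 FPKM, but single markers went different ways. Cd3e, at 13.54, 0 and 0.63 FPKM, gave most of the early EMP sum. Cd3g was lowest in the early EMP library (1.55 FPKM), at 5.36 for late EMP and highest for fetal HSC. Of the 4 T cell markers kept, 3 were at least 2-fold higher for fetal HSC over late EMP and none lower. Over early EMP, 2 were higher and 1 lower for fetal HSC. Keratinocyte markers, 7 of 7, summed to 2.0, 5.16 and 6.05 FPKM, with Krt14 at 0 in the early EMP library and Krt1 at 0 in both others. Fibroblast markers, 6 of 6, summed to 1.54, 7.20 and 3.70 FPKM, with Dcn and Lum at 0 in the early EMP library. Endothelial markers, 5 of 5, summed to 7.33, 7.52 and 4.69 FPKM, nearly all Pecam1, with Cdh5 and Emcn at 0 in both Runx1-driven libraries and Tek at 0 in the fetal HSC library.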

How the data were processed

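Per the labels' protocols, RNA was isolated from the sorted cells with TRIzol, and the Beijing Genomics Institute made and sequenced the libraries (Illumina HiSeq). A single table holds FPKM values deposited by the authors, a row per gene and a column per library; the submitters' processing notes name Bowtie2, RSEM, mm10 and GRCm38, without versions or roles. The early EMP column is headed ctrl and was matched through that sample's description. FPKM is a share, so abundant granule genes lower all other values, and a 0 can be a failed estimate.

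The analysis kept genes reaching 1 FPKM in any library (14412 of 20677); all 51 mitosis genes were, 13 of them only through the other libraries, being under 1 FPKM in the early EMP library. Log2 ratios of (FPKM + 1) understate changes of low genes. Depth was fitted to the smallest steps in the values of genes with a single transcript: 64.0%, 69.3% and 54.0% came within 0.15 of whole fragments, so whole reads were not recovered and the depth is a rough estimate. Promoters are from RefSeq (GRCm38.p6), matched by gene identifier. Use of strand in counting is not stated, and 7 mitosis genes (Ccna2, Aurka, Cdc20, Nusap1, Kif20a, Prc1 and Anln) overlap a protein-coding gene in that annotation, so their values are less certain.

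The members and lists were chosen with earlier results of these data known. All members may be named; in other lists, genes at 5 FPKM or more that were among the 2 most abundant or the 4 furthest apart, Foxm1, Mybl2, Cdkn1a, Cdkn1b, the D cyclins and markers at 0. Alternatives were pseudocounts, filters, scalings, a 4-fold threshold and leaving out the 3064 rows without a symbol. One erythroid marker is not reported here and is left out of its sum. Only the calling of genes at least 2-fold apart was run on simulated counts, without biological variation. The other steps were not simulated. Software was numpy 2.4.6, scipy 1.17.1, pandas 2.3.3 and matplotlib 3.10.9 under Python 3.11.15.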

Additional observations from a re-analysis of the deposited data

How the results depend on the processing

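No paired analysis was possible because each origin has 1 library. With 0.1 FPKM added in place of 1, the median log2 difference of the mitosis genes was 1.95 for late EMP over early EMP and 1.99 for fetal HSC over early EMP, and 1 gene, Espl1, was at least 2-fold lower for fetal HSC over late EMP. With 5 FPKM added, 20 and 21 mitosis genes were at least 2-fold higher than in early EMP, with medians of 0.82 and 0.87, and 0 in the fetal HSC over the late EMP library. The filter at 5 FPKM kept 39 mitosis genes, with medians of 1.6 and 1.75. Median-of-ratios scaling gave a median of 0.23 for fetal HSC over late EMP. At 4-fold the counts were 12, 12 and 0. The larger constants shrink low values by construction; other causes were not tested. The remaining counts, medians and sums were within 1.5 times, or 0.1 on the log2 scale, of those reported. Of 765 recomputed log2 differences of single mitosis genes, 714 kept their sign where called and their side of 2-fold, 36 fell below 2-fold, 34 of them with 5 FPKM added, and 15 passed it, 14 of them with 0.1 FPKM added. No called gene changed sign. Low members rest on few fragments: 2 of 51, Espl1 and Cenph, had under 10 in the early EMP library at the estimated depth.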
